A study of Mus musculus with 2 samples.

Results

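The receptors and receptor-regulated Smads of transforming growth factor beta (TGF-beta) were described in mouse lung macrophages and monocytes whose donor bone marrow either carried or lacked a Cre that deletes Tgfbr2. The 7 genes were taken by symbol from the 22597 genes of the count matrix: the type II receptor Tgfbr2, the type I receptors Tgfbr1 (ALK5) and Acvrl1 (ALK1), the co-receptor Eng (endoglin), the receptor Smads Smad2 and Smad3, and the common Smad, Smad4. In the Tgfbr2-KO group, irradiated CD45.1+CD45.2+ IM-DTR host mice had received marrow of donors that were CD45.1-CD45.2+ and carried LyzM-Cre together with Tgfbr2 fl/fl. In the control group, the same kind of host had received CD45.1-CD45.2+ marrow that was Tgfbr2 fl/fl without the Cre. LyzM-Cre is expressed from the Lyz2 locus in myeloid cells, and IM-DTR mice are a strain whose lung interstitial macrophages can be depleted with diphtheria toxin. All mice of both groups had been given 50 ng diphtheria toxin, 10 days before sacrifice. The ages of the animals are not given in the sources used here.

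Donor-derived cells were sorted from lung as CD45.1-CD45.2+, negative for Ly6G and SiglecF, positive for CD11b and CD64, and low in side scatter. Cells of 5 mice were pooled per genotype, tagged with hashtag B0303 (Tgfbr2-KO) or B0301 (control), and sequenced together in 1 droplet-based 3′ RNA library. There is thus 1 pool per genotype, no p-value was computed, and every interval below covers counting error and not the spread between mice. A gene's level is given as UPM: its unique molecular identifiers (UMIs) in a pool or cell state, per 1000000 UMIs of all genes there. Levels are compared between cells and not between genes, since a 3′ tag count also depends on how well each transcript is captured.

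TGF-beta binds a pair of type II receptors, which then recruit and phosphorylate type I receptors. The activated type I receptor ALK5 phosphorylates Smad2 and Smad3, which join Smad4 and enter the nucleus to act on transcription. ALK1 and the co-receptor endoglin are best known from endothelial cells, where they answer BMP9 and BMP10 and pass the signal through other Smads. In tissue macrophages, TGF-beta is known as a signal that shapes identity, among others in microglia, Langerhans cells and alveolar macrophages.

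The promoters of the 2 signalling receptors are shown because these genes differed in how their RNA varied between the pools and between the macrophage states. Each is RefSeq sequence of GRCm38.p6, 5′ to 3′ along the gene, 250 bases before to 50 after the annotated start, at chr9:116175314-116175613 on the minus strand for Tgfbr2 and chr4:47352972-47353271 on the plus strand for Tgfbr1. Capitals mark every match, on either strand, to CAGAC, the core of the Smad-binding element, or GGGCGG, the GC box.
Tgfbr2: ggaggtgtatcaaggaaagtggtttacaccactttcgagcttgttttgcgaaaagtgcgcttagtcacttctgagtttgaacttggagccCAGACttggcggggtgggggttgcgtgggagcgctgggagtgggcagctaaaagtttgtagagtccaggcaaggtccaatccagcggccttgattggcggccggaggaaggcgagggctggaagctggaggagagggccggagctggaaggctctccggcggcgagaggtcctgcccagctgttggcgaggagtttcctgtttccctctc
Tgfbr1: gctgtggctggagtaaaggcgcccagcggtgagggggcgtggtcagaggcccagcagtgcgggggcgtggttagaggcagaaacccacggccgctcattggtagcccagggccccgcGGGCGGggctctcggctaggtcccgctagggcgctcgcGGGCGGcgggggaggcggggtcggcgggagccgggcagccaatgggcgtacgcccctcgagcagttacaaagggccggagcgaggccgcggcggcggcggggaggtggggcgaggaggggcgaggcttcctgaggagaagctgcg

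The Tgfbr2 window held 1 match to CAGAC and 0 to GGGCGG, and the Tgfbr1 window held 0 matches to CAGAC and 2 to GGGCGG. Over all 32817 promoters of this length in the table, 49.6% held at least 1 CAGAC and 35.6% at least 1 GGGCGG. Holding at least 1 match to either is therefore not unusual, while the share with 2 or more GGGCGG is not reported here. The Eng window held 2 matches to CAGAC and 0 to GGGCGG, and the Smad3 window 0 and 2. Smad2 and Smad4 windows were not used here. The AP-1 motif TGANTCA, found in 7.81% of promoters, had 0 matches in the windows of Tgfbr2, Tgfbr1, Eng and Smad3. GAGGAAG, a core of PU.1 sites found in 13.6% of promoters, had 1 match each in the windows of Tgfbr2 and Eng and 0 in those of Tgfbr1 and Smad3. These are matches of letters, and nothing in the files measures binding at them.

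In GRCm38.p6 coordinates, Tgfbr2 (ENSMUSG00000032440) lies on chromosome 9 from 116087695 to 116175363 and Tgfbr1 (ENSMUSG00000007613) on chromosome 4 from 47353222 to 47414926. Acvrl1 (ENSMUSG00000000530) lies on chromosome 15 from 101128522 to 101145336, and Eng (ENSMUSG00000026814) on chromosome 2 from 32646595 to 32682669. Smad3 (ENSMUSG00000032402) lies on chromosome 9 from 63646766 to 63757994. Smad2 (ENSMUSG00000024563) and Smad4 (ENSMUSG00000024515) both lie on chromosome 18, from 76241090 to 76311748 and from 73634790 to 73703791.

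After filtering, 2674 Tgfbr2-KO cells and 1896 control cells remained, with 30729204 and 16298452 gene UMIs. The median depth was 10277.5 UMIs per cell in the Tgfbr2-KO pool and 7785 in the control pool, so shares of cells with a UMI are also given after thinning to 3000 UMIs per cell. Shallower cells were left out there, 83 in the Tgfbr2-KO pool and 80 in the control pool, so thinned shares are over 2591 Tgfbr2-KO cells and 1816 control cells. Cells were gated into 12 states on marker genes, none of them among the 7 genes. Complement C1q genes, which mark macrophages, summed to 10405 UPM in the Tgfbr2-KO pool and 11520 UPM in the control pool. T or NK cell markers summed to 5.47 and 0.982 UPM in Tgfbr2-KO and control cells, and alveolar macrophage markers to 8.04 and 12 UPM. RNA outside cells, read from barcodes of 10 to 100 UMIs, made up at most 4.47% of the Tgfbr2-KO UMIs and 4.33% of the control UMIs. That would bring Tgfbr2 at most 7.62 UPM in Tgfbr2-KO cells and 7.38 UPM in control cells, and less of every other gene of the set. No gated state is known to lack these genes, so no cell type served as a blank for the shares of cells with a UMI.

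Tgfbr2, the targeted gene, was detected at much the same level in both pools. It had 5999 UMIs in the Tgfbr2-KO pool, or 195 UPM (95% counting interval 190 to 200), against 3505 UMIs and 215 UPM (208 to 222) in the control pool. The control level was 1.10-fold higher (1.06 to 1.15), below the 1.5-fold threshold used for a call. A UMI of this library tags the 3′ end of a transcript, and the labels do not give the exon between the loxP sites, so the count does not check whether the gene was deleted. Thinned, 42.5% of Tgfbr2-KO cells (40.6 to 44.5) and 45.1% of control cells (42.8 to 47.4) held a Tgfbr2 UMI.

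Tgfbr1, the type I partner of Tgfbr2, was the only member past 1.5-fold between the pools. Its level was 141 UPM (136 to 145; 4319 UMIs) in Tgfbr2-KO cells and 290 UPM (281 to 298; 4721 UMIs) in control cells. It was thus 2.06-fold lower in the Tgfbr2-KO pool (1.98 to 2.15), a log2 ratio of -1.04. At least 1 Tgfbr1 UMI was found in 28.9% of thinned Tgfbr2-KO cells (27.2 to 30.7) and in 48.8% of thinned control cells (46.5 to 51.1). Without thinning, 54.2% of Tgfbr2-KO cells and 74.3% of control cells held one, although the Tgfbr2-KO cells were the deeper ones. Cells with 3 or more Tgfbr1 UMIs made up 21.8% of the Tgfbr2-KO pool and 35.7% of the control pool.

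The pools differ in their mix of states, and this touches the pooled value. Interferon-activated macrophages, gated on Ly6a, Ly6i, Gbp2, Cxcl9 and Iigp1, made up 19.2% of the Tgfbr2-KO pool (513 cells) and 0.369% of the control pool (7 cells). Without them Tgfbr1 stood at 149 UPM in Tgfbr2-KO cells and 289 UPM in control cells, 1.94-fold lower (1.85 to 2.02); among the genes counted there, 14.8% were past 1.5-fold, 8.22% higher and 6.58% lower in the Tgfbr2-KO pool. A further 261 Tgfbr2-KO cells and 0 control cells were at or above the same interferon height in other states, 155 of them among the 292 classical monocyte-like cells. Without any cell at or above it, a setting chosen after seeing the data, Tgfbr1 stood at 164 UPM (158 to 170) in 1900 Tgfbr2-KO cells and 289 UPM (281 to 297) in 1889 control cells, 1.76-fold lower (1.69 to 1.85). With every state given the weight it had in the control pool, the log2 ratio was -0.70. In a summed level, fewer cells with the RNA and less RNA per cell cannot be told apart.

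ALK1 and endoglin differed less. Acvrl1 had 69.6 UPM (66.7 to 72.6) in Tgfbr2-KO cells and 75.3 UPM (71.2 to 79.7) in control cells. Eng had 28.9 UPM (27.0 to 30.9) in Tgfbr2-KO cells and 25.6 UPM (23.2 to 28.2) in control cells. Endothelial markers, whose cells express both genes strongly, summed to 64.9 UPM over 10 genes in the Tgfbr2-KO pool and 44.4 UPM in the control pool, and without the cells gated as structural the log2 ratio of Eng was 0.13 in place of 0.18. The few cells gated as structural, 18 Tgfbr2-KO cells and 14 control cells, had 208 and 59.9 UPM of Eng.

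The Smads were slightly higher in the Tgfbr2-KO pool, each by less than the threshold. Smad2 stood at 41.7 UPM (39.5 to 44.1) in Tgfbr2-KO cells and 34.2 UPM (31.5 to 37.2) in control cells, a 1.22-fold difference (1.10 to 1.35). Smad3 stood at 75.8 UPM (72.7 to 78.9) in Tgfbr2-KO cells and 63.4 UPM (59.6 to 67.4) in control cells, a 1.19-fold difference (1.11 to 1.29). Smad4, which both branches of the pathway share, stood at 54.6 UPM (52.0 to 57.3) in Tgfbr2-KO cells and 48.4 UPM (45.1 to 51.9) in control cells. Thinned shares of cells with a UMI differed by at most a few percentage points for the 3 Smads, with 11.5% against 9.31% for Smad2, 16.9% against 14.6% for Smad3 and 13.9% against 12.8% for Smad4 in Tgfbr2-KO against control cells.

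**Figure D1:**
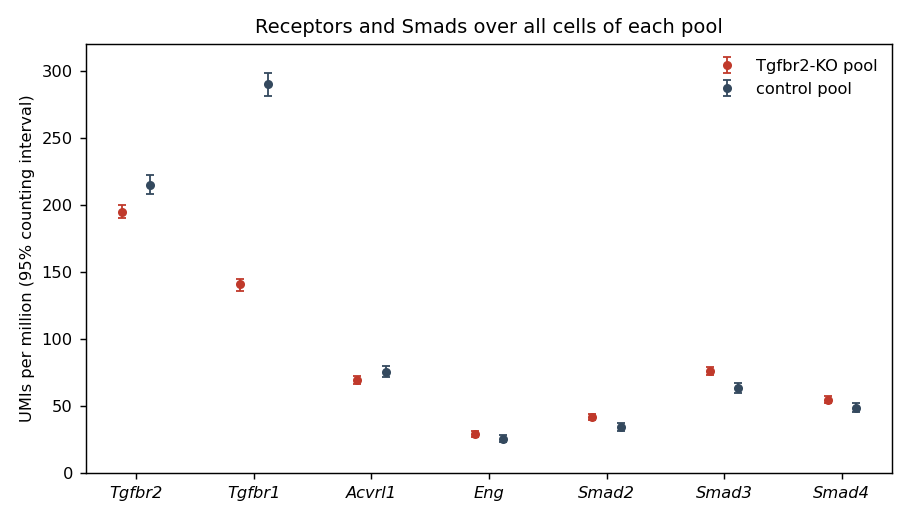
Levels of the 7 genes over all cells, in UPM (y axis), in the Tgfbr2-KO pool (red, left of each pair) and the control pool (dark, right); bars are 95% counting intervals. Tgfbr1 stands at 141 UPM in the Tgfbr2-KO pool and 290 UPM in the control pool, while the other 6 genes differ by less than 1.5-fold.

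A gene was counted as comparable when the pools together held at least 100 of its UMIs and either pool reached 100 UPM, which 2 of the 7 members met, Tgfbr2 and Tgfbr1. Of these, 1 was at least 1.5-fold lower in the Tgfbr2-KO pool and 0 higher. Over all 1736 counted genes, 20.7% were past 1.5-fold in either direction, with 11.4% higher and 9.27% lower in the Tgfbr2-KO pool, so a gene past this threshold was not rare. The Tgfbr1 ratio lay at percentile 2.59 of the counted genes. The other 5 members had fewer than 100 UPM in both pools and were not counted, and none of the 5 was past 1.5-fold.

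By state, the low Tgfbr1 of the Tgfbr2-KO pool was not spread evenly. Among the 3 large macrophage states the ratio was farthest from 1 in Lyve1/Folr2/Cd163 macrophages, a state known as vessel-associated. The state is named here after 3 of its gate genes, and Cd209f and Cd209g were summed with them in the gate. In these macrophages the Tgfbr1 level was 51.9 UPM (44.8 to 59.9) in 390 Tgfbr2-KO cells and 148 UPM (132 to 165) in 249 control cells, 2.85-fold lower (2.37 to 3.42). The next state had Mrc1, the gene of the mannose receptor CD206, but those gate genes below their summed threshold. There Tgfbr1 stood at 182 UPM (170 to 194) in 549 Tgfbr2-KO cells and 350 UPM (334 to 368) in 604 control cells, 1.93-fold lower (1.78 to 2.09). In low-Mrc1 macrophages, which carried markers such as Cd207 and H2-M2, it stood at 307 UPM (291 to 324) in 468 Tgfbr2-KO cells and 344 UPM (327 to 361) in 599 control cells, 1.12-fold lower (1.04 to 1.21). Among counted genes, 10.9%, 9.53% and 6.76% were past 1.5-fold in these 3 states, in that order. The shares higher in the Tgfbr2-KO pool were 5.04%, 5.68% and 3.96%, and the shares lower in it were 5.87%, 3.85% and 2.80%. In the Lyve1/Folr2/Cd163 state Tgfbr1 reached the 100 UPM that counting needs in the control pool alone. Median depths were close, at 8734.5 UMIs in Tgfbr2-KO and 8595 in control Lyve1/Folr2/Cd163 cells and at 8049.5 and 7500 in low-Mrc1 cells.

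The Lyve1/Folr2/Cd163 cells of the 2 pools also differed in how strongly they carried their own markers. The median cell had 45.9 UMIs of the 6 CD206+ markers per 10000 in the Tgfbr2-KO pool and 33.2 in the control pool, with Mrc1 alone at 21.7 and 17.3. The part of this in the Tgfbr1 difference was not tested.

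Tgfbr1 also had lower values in Tgfbr2-KO cells of smaller states. Fn1-high macrophages had 103 UPM (84.7 to 124) in 61 Tgfbr2-KO cells and 241 UPM (221 to 262) in 168 control cells. Other C1q-low cells had 112 UPM (97.8 to 128) in 156 Tgfbr2-KO cells and 357 UPM (310 to 410) in 90 control cells, although the control cells of this state had a median of 3615 UMIs against 13640.5 in the Tgfbr2-KO cells. In that state 48 Tgfbr2-KO cells and 0 control cells were at or above the interferon height, and the 108 Tgfbr2-KO cells below it had 126 UPM (107 to 147). Proliferating cells, gated on cell-cycle genes such as Mki67, had 174 UPM (155 to 194) in 113 Tgfbr2-KO cells and 295 UPM (253 to 343) in 40 control cells. Of these, 29 Tgfbr2-KO cells and 0 control cells were at or above the interferon height, and the 84 Tgfbr2-KO cells below it had 190 UPM (167 to 215). Interferon-activated macrophages of the Tgfbr2-KO pool had 115 UPM (108 to 123), and the 7 control cells of that state are too few for a level. Classical monocyte-like cells of the Tgfbr2-KO pool, carrying Ly6c2 and Plac8, had 62.3 UPM (53.9 to 71.7).

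**Figure D2:**
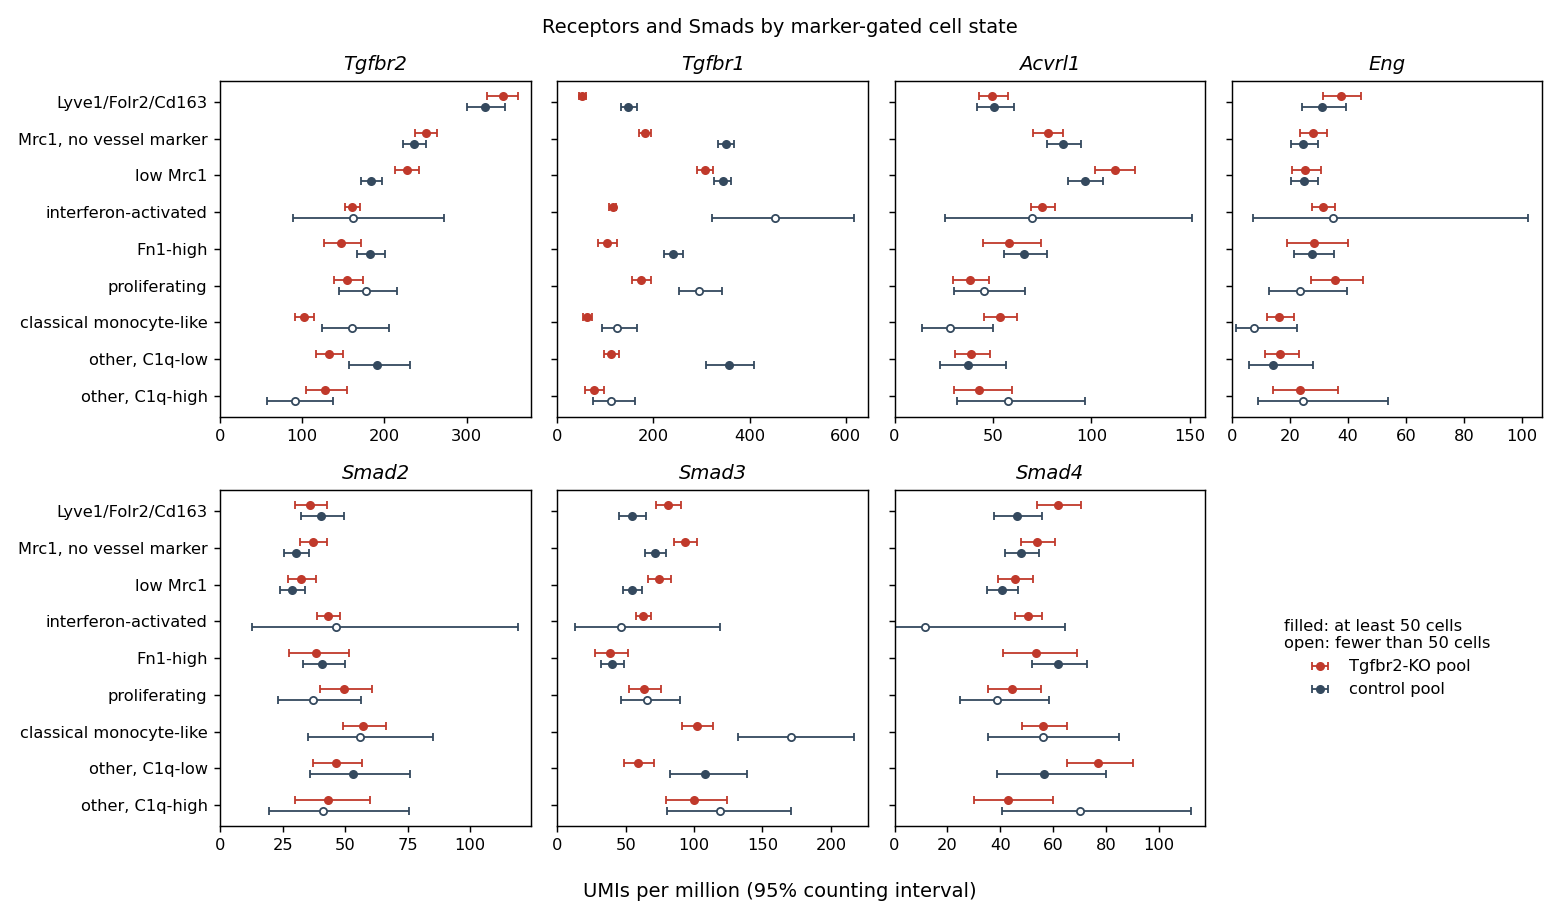
Levels of each gene in UPM (x axis) in 9 marker-gated states (rows), with the Tgfbr2-KO pool in red above the control pool in dark; bars are 95% counting intervals, and open symbols rest on fewer than 50 cells. Tgfbr2 is highest in Lyve1/Folr2/Cd163 macrophages of both pools, where Tgfbr1 stands at 51.9 UPM in Tgfbr2-KO cells and 148 UPM in control cells.

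Among the states with at least 50 cells in both pools, Lyve1/Folr2/Cd163 macrophages had the lowest Tgfbr1 in each pool. The Tgfbr2-KO pool had more states of that size, so the orders below do not cover the same states. Among control states of at least 50 cells, other C1q-low cells, Mrc1-positive macrophages and low-Mrc1 macrophages came first with overlapping intervals, followed by Fn1-high macrophages at 241 UPM and Lyve1/Folr2/Cd163 macrophages at 148 UPM. In the Tgfbr2-KO pool low-Mrc1 macrophages stood first at 307 UPM, followed by Mrc1-positive macrophages at 182 UPM and proliferating cells at 174 UPM, which overlapped. Interferon-activated, other C1q-low and Fn1-high cells followed between 103 and 115 UPM. Other C1q-high cells at 76.3 UPM (58.5 to 97.8), classical monocyte-like cells at 62.3 UPM and Lyve1/Folr2/Cd163 macrophages at 51.9 UPM came last, with overlapping intervals. Over the 14 groups of state and pool with at least 50 cells, Tgfbr1 spanned 6.89-fold, against 3.36-fold for Tgfbr2 and 1.90-fold for Smad4.

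Of the 3 large macrophage states, Lyve1/Folr2/Cd163 macrophages had the most Tgfbr2 in both pools, while the Mrc1-positive and low-Mrc1 states overlapped in the Tgfbr2-KO pool. In Lyve1/Folr2/Cd163 macrophages it stood at 344 UPM (325 to 363) in Tgfbr2-KO cells and 323 UPM (300 to 347) in control cells. In Mrc1-positive macrophages without those markers it stood at 250 UPM (237 to 264) in Tgfbr2-KO cells and 236 UPM (222 to 251) in control cells. In low-Mrc1 macrophages it stood at 227 UPM (213 to 242) in Tgfbr2-KO cells and 184 UPM (172 to 197) in control cells, 1.23-fold higher in the Tgfbr2-KO pool (1.12 to 1.35). None of the 3 ratios passed 1.5-fold, and in each state the Tgfbr2-KO value was the higher one, whereas over all cells it was the lower one.

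In the Tgfbr2-KO pool the remaining states had less Tgfbr2. Interferon-activated macrophages had 161 UPM (152 to 170), proliferating cells 155 UPM (138 to 174) and Fn1-high macrophages 147 UPM (126 to 172), and these 3 overlapped. Classical monocyte-like cells had 102 UPM (91.3 to 114), below every other state of at least 50 cells except that their interval overlapped that of other C1q-high cells at 128 UPM (105 to 155). The 49 classical monocyte-like control cells had 161 UPM (124 to 206). Fn1-high control macrophages had 183 UPM (166 to 201), overlapping low-Mrc1 control cells. Other C1q-low cells had 133 UPM (117 to 150) in the Tgfbr2-KO pool and 191 UPM (157 to 231) in the control pool, with intervals apart. The 108 Tgfbr2-KO cells of that state below the interferon height had 159 UPM (138 to 182), which overlapped the control interval.

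Acvrl1 ran against Tgfbr2 across the 3 large macrophage states. It was highest in low-Mrc1 macrophages, at 112 UPM (102 to 122) in Tgfbr2-KO cells and 96.6 UPM (87.9 to 106) in control cells. Mrc1-positive macrophages without vessel markers had 77.9 UPM (70.4 to 85.8) in Tgfbr2-KO cells and 85.7 UPM (77.5 to 94.5) in control cells. Lyve1/Folr2/Cd163 macrophages had 49.7 UPM (42.7 to 57.5) in Tgfbr2-KO cells and 50.6 UPM (41.7 to 60.8) in control cells. The pools' intervals overlapped in each of these states, though the ratio in low-Mrc1 macrophages was 1.15 (1.01 to 1.32), while the Lyve1/Folr2/Cd163 and low-Mrc1 states did not overlap in either pool.

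Eng was low in every macrophage state. It stood at 37.6 UPM (31.6 to 44.5) in Tgfbr2-KO and 31.1 UPM (24.2 to 39.2) in control Lyve1/Folr2/Cd163 macrophages, and at 25.3 and 24.8 UPM in Tgfbr2-KO and control low-Mrc1 macrophages. Classical monocyte-like Tgfbr2-KO cells had 16.4 UPM (12.3 to 21.6). Thinned, 7.72% of Tgfbr2-KO cells and 6.77% of control cells held an Eng UMI.

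Among the Smads, Smad3 was the one with a higher value in the Tgfbr2-KO cells of all 3 large macrophage states whose counting interval left out equality. Its level was 80.7 UPM (71.8 to 90.5) in Tgfbr2-KO and 54.6 UPM (45.4 to 65.1) in control Lyve1/Folr2/Cd163 macrophages, 1.48-fold higher (1.19 to 1.84). In Mrc1-positive macrophages without vessel markers it was 93.5 UPM (85.3 to 102) in Tgfbr2-KO cells and 71.5 UPM (64.0 to 79.6) in control cells, 1.31-fold higher (1.13 to 1.51). In low-Mrc1 macrophages it was 74.3 UPM (66.3 to 82.9) in Tgfbr2-KO cells and 54.6 UPM (48.2 to 61.7) in control cells, 1.36-fold higher (1.15 to 1.61), but with every cell thinned to 3000 UMIs the log2 ratio in that state was 0.03 in place of 0.44. None of the 3 passed 1.5-fold. In other C1q-low cells the values ran the other way, with 59.3 UPM (49.1 to 71.0) in Tgfbr2-KO cells and 108 UPM (82.6 to 139) in control cells. Depth also differed there, with medians of 13640.5 UMIs in Tgfbr2-KO and 3615 UMIs in control cells. Classical monocyte-like cells likewise had 102 UPM (91.3 to 114) in 292 Tgfbr2-KO cells and 171 UPM (132 to 217) in 49 control cells. Of those Tgfbr2-KO cells, 155 were at or above the interferon height. Fn1-high macrophages had low Smad3 in both pools, 38.2 UPM (27.5 to 51.6) in Tgfbr2-KO cells and 40.0 UPM (32.2 to 49.1) in control cells, intervals that overlap those of the next lowest states.

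Smad2 and Smad4 varied the least between states. Over the 14 groups Smad2 lay between 28.6 UPM in low-Mrc1 control macrophages and 57.3 UPM in classical monocyte-like Tgfbr2-KO cells. Smad4 lay between 40.5 UPM in low-Mrc1 control macrophages and 76.9 UPM in other C1q-low Tgfbr2-KO cells. In Lyve1/Folr2/Cd163 macrophages Smad4 was 61.8 UPM (54.0 to 70.4) in Tgfbr2-KO cells and 46.2 UPM (37.7 to 55.9) in control cells, 1.34-fold higher (1.06 to 1.71). Smad2 in that state was 36.0 UPM (30.1 to 42.7) in Tgfbr2-KO cells and 40.4 UPM (32.5 to 49.6) in control cells.

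**Figure D3:**
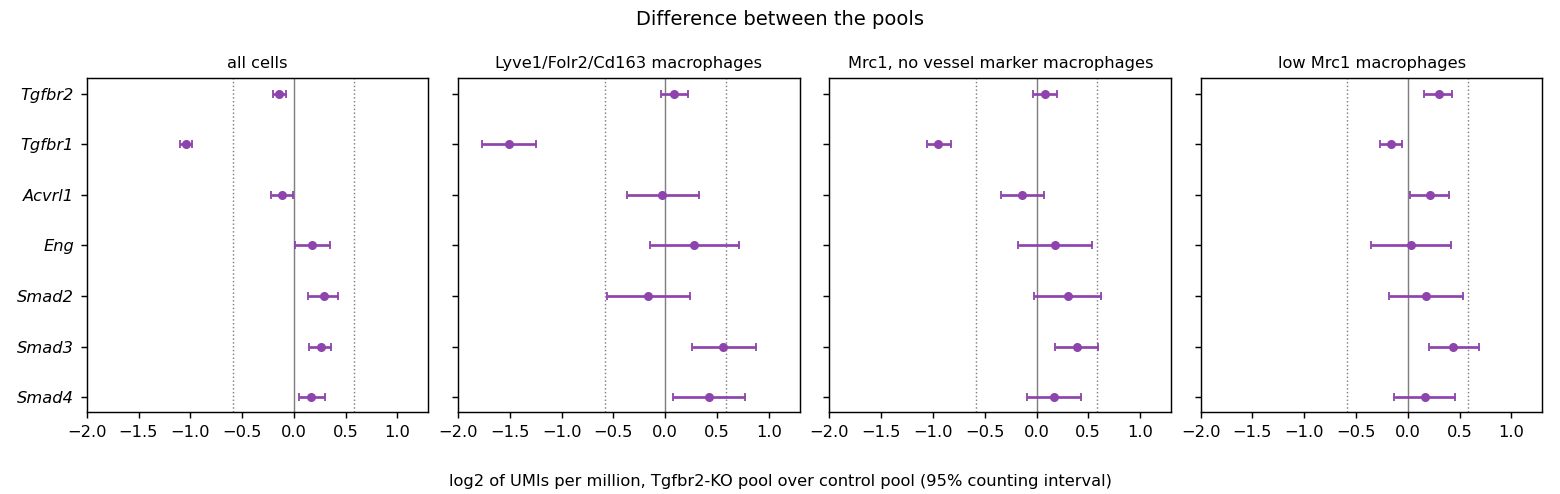
Log2 ratio of Tgfbr2-KO over control (x axis) for each gene in all cells and in the 3 largest macrophage states, with 95% counting intervals; dotted lines mark 1.5-fold. Tgfbr1 lies beyond the lower line in all cells, Lyve1/Folr2/Cd163 and Mrc1-positive macrophages (-1.04, -1.51 and -0.95) and inside it in low-Mrc1 macrophages (-0.16).

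The gradient along Mrc1 was looked at directly, in a breakdown chosen after seeing the states. C1q-high macrophages that were neither interferon-activated nor Fn1-high were split into 5 bins by their Mrc1 UMIs per 10000 UMIs. In Tgfbr2-KO cells Tgfbr1 stood at 257 UPM in cells without Mrc1, then 269, 213, 128 and 60.7 UPM as Mrc1 went up to 16 or more. In control cells the same bins had 328, 328, 365, 254 and 220 UPM. Tgfbr1 was lower in the Tgfbr2-KO cells of every bin, by 1.28-fold (1.10 to 1.48) without Mrc1, 1.22-fold (1.13 to 1.33), 1.72-fold (1.55 to 1.91), 1.98-fold (1.73 to 2.28) and 3.62-fold (3.06 to 4.31) at the highest Mrc1. Of the highest bin, 70.2% of Tgfbr2-KO cells and 56.2% of control cells were Lyve1/Folr2/Cd163 macrophages. In those of that bin Tgfbr1 was 38.6 UPM (31.1 to 47.4) in Tgfbr2-KO and 126 UPM (106 to 147) in control cells, 3.25-fold lower (2.49 to 4.27). In the bin's other cells it was 115 UPM (94.7 to 139) in Tgfbr2-KO and 362 UPM (321 to 407) in control cells, 3.14-fold lower (2.51 to 3.95). The bins held between 157 and 391 Tgfbr2-KO cells and between 180 and 463 control cells.

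Tgfbr2 went the other way along Mrc1, alike in both pools. It stood at 188, 218, 243, 249 and 362 UPM in the bins of the Tgfbr2-KO pool and at 177, 181, 216, 251 and 348 UPM in those of the control pool. Acvrl1 was lower in bins of high Mrc1, with 96.1 UPM in Tgfbr2-KO and 94.0 UPM in control cells without Mrc1, and 48.9 UPM in Tgfbr2-KO and 52.0 UPM in control cells of the highest bin. Smad3 was higher in the Tgfbr2-KO cells of every bin, by between 1.19-fold (0.845 to 1.68) and 1.43-fold (1.20 to 1.69).

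**Figure D4:**
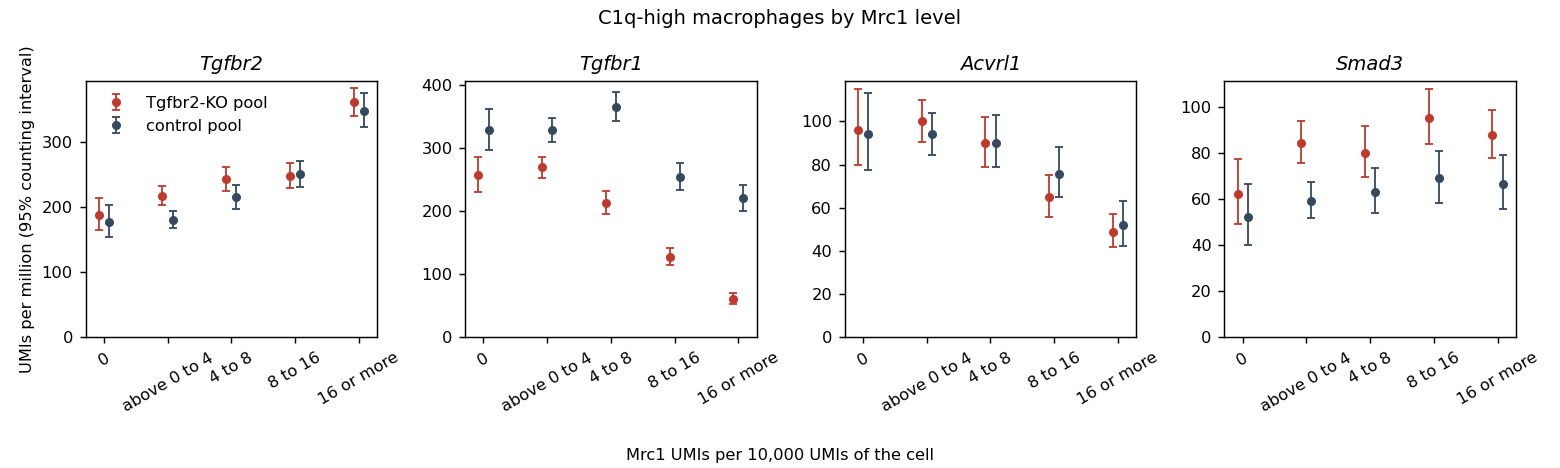
Levels of Tgfbr2, Tgfbr1, Acvrl1 and Smad3 in UPM (y axis) in C1q-high macrophages split by Mrc1 UMIs per 10,000 UMIs (x axis), Tgfbr2-KO in red and control in dark, with 95% counting intervals. Tgfbr1 is 257 UPM at the left and 60.7 UPM at the right in Tgfbr2-KO cells, against 328 and 220 UPM in control cells, while the Tgfbr2 levels of the pools stay close.

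A clustering of the cells made without the 7 genes gave a finer view. In cluster 1, led by Cd209f, Folr2 and Cd163, Tgfbr1 stood at 53.9 UPM in 403 Tgfbr2-KO cells and 184 UPM in 239 control cells, 3.40-fold lower (2.87 to 4.05). In cluster 0, led by Col14a1 and Cd207, it stood at 440 UPM in 224 Tgfbr2-KO cells and 403 UPM in 510 control cells, 1.09-fold higher (1.01 to 1.18). In cluster 10, led by Dcn, Cd207 and H2-M2, the levels were 184 UPM in Tgfbr2-KO cells and 183 UPM in control cells. The Fn1-led cluster 4 had 122 UPM in Tgfbr2-KO cells and 216 UPM in control cells.

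The Mrc1-positive state without vessel markers mixes several of these clusters, in different shares in each pool. Cluster 0 held 16.6% of its Tgfbr2-KO cells and 43.9% of its control cells, and there Tgfbr1 was 366 UPM in Tgfbr2-KO cells and 395 UPM in control cells, 1.08-fold lower (0.945 to 1.23). Cluster 1 held 13.8% of its Tgfbr2-KO cells and 7.12% of its control cells, with 93.4 UPM in 76 Tgfbr2-KO cells and 393 UPM in 43 control cells. Cluster 5, led by Mucl1, Retnla and Mmp13, held 20.6% of its Tgfbr2-KO cells, at 52.0 UPM, and 0.331% of its control cells. In cluster 10 Tgfbr1 was 206 UPM in 83 Tgfbr2-KO cells and 176 UPM in 126 control cells, 1.17-fold higher (0.908 to 1.5). In cluster 3, with 54 Tgfbr2-KO and 81 control cells, it was 1.20-fold lower (0.988 to 1.46). In cluster 2, with 39 and 52 cells, it was 2.55-fold lower (1.79 to 3.69). Cluster 9 held 12.9% of the state's Tgfbr2-KO cells, at 161 UPM, and 0.828% of its control cells. The parts of levels within clusters and of the cluster mix in the 1.93-fold value were not tested.

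The low-Mrc1 state mixes clusters as well. Cluster 0 held 24.4% of its Tgfbr2-KO cells and 35.4% of its control cells, and there Tgfbr1 was 505 UPM in 114 Tgfbr2-KO cells and 432 UPM in 212 control cells, 1.17-fold higher (1.04 to 1.31). Cluster 3, led by Jun, had 462 UPM in 66 Tgfbr2-KO cells and 580 UPM in 76 control cells. Over the whole state, halving all gate heights turned the log2 ratio of Tgfbr1 to 0.03, so its direction there depends on the gates.

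The small cluster 11 stood apart in depth, with a median of 3085 UMIs in 63 Tgfbr2-KO cells and 2457 UMIs in 76 control cells and mitochondrial shares of 4.72% and 5.53%. It had the most Tgfbr1, 488 UPM in Tgfbr2-KO and 887 UPM in control cells, the most Tgfbr2, 521 and 531 UPM, and the most Smad3, 279 and 351 UPM, of the 8 clusters compared. The largest part of its cells, 83, was gated as other C1q-low. With cells of at least 5000 UMIs alone, an alternative chosen after seeing the data, the log2 ratios of Tgfbr1 were -1.51 in Lyve1/Folr2/Cd163, -0.97 in Mrc1-positive and -0.15 in low-Mrc1 macrophages.

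Because Tgfbr1 and Tgfbr2 act as 1 complex, the share of cells with a UMI of both was taken at 3000 UMIs per cell. Both were found in 13.1% of Tgfbr2-KO cells (11.8 to 14.5) and 22.2% of control cells (20.4 to 24.2), close to the products of the single shares, 12.3% and 22.0%. Neither was found in 41.7% of Tgfbr2-KO cells and 28.4% of control cells. A missing UMI at this depth does not show that a cell lacks the RNA.

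The states differed in which of the 2 receptors was seen alone. In Lyve1/Folr2/Cd163 macrophages 52.3% of Tgfbr2-KO cells and 46.9% of control cells held Tgfbr2 only, while 5.99% and 12.3% held Tgfbr1 only. In low-Mrc1 macrophages 18.5% of Tgfbr2-KO cells and 16.6% of control cells held Tgfbr2 only, and 25.5% and 31.1% held Tgfbr1 only. Both were seen in 27.0% of Tgfbr2-KO (23.1 to 31.3) and 25.0% of control (21.6 to 28.7) low-Mrc1 macrophages, against 8.07% (5.55 to 11.3) and 14.8% (10.6 to 19.9) of Lyve1/Folr2/Cd163 macrophages.

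**Figure D5:**
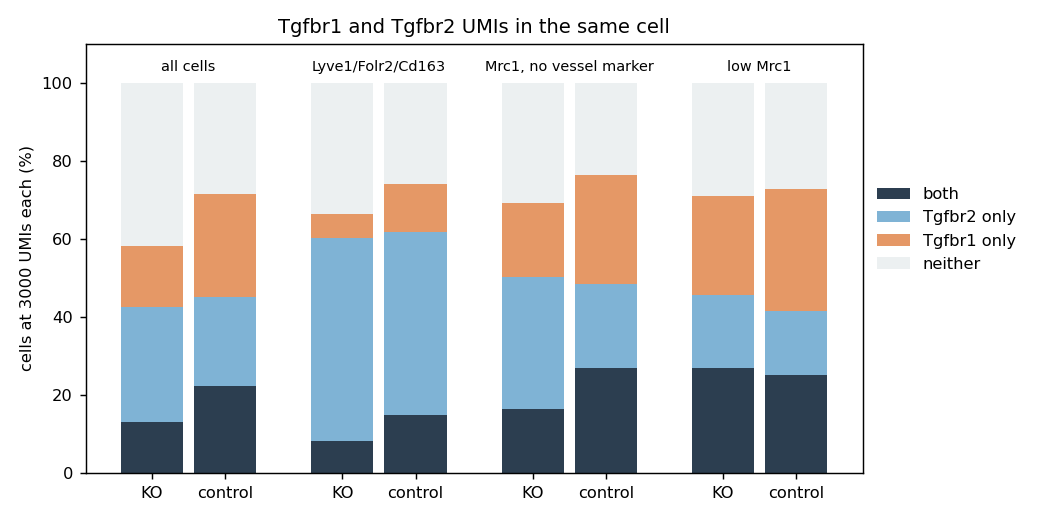
Shares of cells (y axis, percent of the cells with at least 3000 UMIs, each thinned to 3000) with UMIs of both Tgfbr1 and Tgfbr2, of 1 of them or of neither, for the Tgfbr2-KO pool (left bar of each pair) and the control pool (right bar). Over all cells 13.1% of Tgfbr2-KO cells and 22.2% of control cells held both.

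The make-up of the Smad UMIs, which no scaling between pools can move, was alike in both pools over all cells. There Smad3 gave 44.0% (42.7 to 45.4) of the summed Smad2, Smad3 and Smad4 UMIs in Tgfbr2-KO cells and 43.4% (41.4 to 45.4) in control cells, and Smad2 gave 24.2% and 23.4%. Other C1q-low cells differed, with Smad3 at 32.5% (27.7 to 37.6) in Tgfbr2-KO cells and 49.6% (40.5 to 58.8) in control cells, and Smad4 at 42.1% (37.0 to 47.4) in Tgfbr2-KO cells and 26.0% (18.5 to 34.7) in control cells. The control cells of this state had a median of 3615 UMIs against 13640.5 in the Tgfbr2-KO cells. Their median mitochondrial share was 3.77% against 2.73%, and the part of these in the Smad shares was not tested. Fn1-high macrophages had a lower Smad3 share than all cells of their pool, at 29.4% (22.1 to 37.6) in Tgfbr2-KO cells and 28.0% (23.2 to 33.2) in control cells. In Lyve1/Folr2/Cd163 macrophages Smad2 made up 20.2% (17.1 to 23.4) of the sum in Tgfbr2-KO cells and 28.6% (23.7 to 33.9) in control cells.

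Around the 7 genes, 64 genes of the pathway were taken from 7 lists, and 19 were counted. Of these 5 were at least 1.5-fold lower and 1 at least 1.5-fold higher in the Tgfbr2-KO pool, beside 9.27% and 11.4% of all counted genes. Their median log2 ratio was -0.20, against 0.05 over all counted genes. Among 14 genes of latency and activation, 6 were counted: the integrin subunits Itgav and Itgb5 and the protease gene Furin were lower, and Thbs1, the gene of thrombospondin-1, was higher. Itgav, whose integrins release TGF-beta from its latent form, had 152 UPM in Tgfbr2-KO cells and 396 UPM in control cells, 2.60-fold lower (2.50 to 2.70). Of 14 inhibitors 5 were counted and 2, Skil and Pmepa1, were lower. Both are known targets of TGF-beta signalling that restrain it. Pmepa1 reached the level needed for counting in the control pool alone, with 81.7 UPM in Tgfbr2-KO and 246 UPM in control cells. So did Itgb5, with 84.2 and 160 UPM. Thbs1 reached it in the Tgfbr2-KO pool alone, with 207 and 76.7 UPM, while Itgav, Furin and Skil reached it in both pools. The same rule held for all counted genes, and its part in these counts and in the median was not tested.

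The other lists held no counted gene past the threshold. The ligand Tgfb1 had a log2 ratio of -0.23, and Nrros, which tethers latent TGF-beta on myeloid cells, 0.21. Of 9 further receptors of the family, among them Acvr1, Bmpr2 and the co-receptor Tgfbr3, and of 3 BMP receptor Smads, 0 were counted, since all had fewer than 100 UPM in both pools; Bmpr2, at 41.0 UPM in Tgfbr2-KO and 50.4 UPM in control cells, had the most. Itgav followed the same order of states as Tgfbr1 in its log2 ratios, with -2.03 in Lyve1/Folr2/Cd163, -0.94 in Mrc1-positive and -0.64 in low-Mrc1 macrophages. Pmepa1 had -1.80, -0.90 and -0.65 in the same states, Skil -1.07, -0.75 and -0.39, and Itgb5 -1.28, -0.69 and -0.23. Furin (-0.27, -0.23 and -0.27) and Thbs1 (0.66, 1.93 and 0.23) did not follow that order. The share of all counted genes at least 1.5-fold lower ran in the same order, with 5.87%, 3.85% and 2.8%, so the order is not particular to these genes.

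For each member the 3 genes most alike in level over the 14 groups were found among 2485 candidate genes, by Pearson's r of log2(UPM + 10). The groups share 1 library and 2 pools, so r is a description. St3gal6 (0.962), Rab7b (0.946) and C5ar1 (0.925) were most like Tgfbr2. Map4k3 (0.935), Cpd (0.921) and Cited2 (0.898) were most like Tgfbr1. The closest gene was Plxnb2 for Eng (0.878), Ppp1r2 for Smad2 (0.956), Lyn for Smad3 (0.844) and Tbk1 for Smad4 (0.833). Among the members themselves, r between Tgfbr1 and Tgfbr2 was 0.241, and the value farthest from 0 was -0.765 between Acvrl1 and Smad2.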

How the data were processed

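Cells of both pools were sequenced in 1 RNA library, with 1 hashtag library. Cell Ranger 8.0, Seurat 5.1.0 and the build GRCm38 are listed in the submitters' processing notes; what was done with Seurat and the annotation version are not given in the sources used here. The deposited matrix holds raw UMI counts per gene and barcode, without normalization, for 1172636 barcodes. Per the file headers, the hashtag table holds fractions of posterior probability per cell, and the deposited hashtag values are log10 of the count plus 1. Its assignment was used as deposited. All 4887 cells of that table were among the barcodes of the matrix.

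Of 4671 cells assigned to 1 hashtag, 4570 had at least 1000 UMIs, 500 genes and at most 10% mitochondrial UMIs. The 96 multiplets, 54 blank and 66 unassigned cells entered no comparison, and doublets within a pool were not removed. Counts were summed per pool and state. Exact 95% intervals were Poisson (UPM), conditional binomial (ratios) or Clopper-Pearson (shares), and reflect counting error alone. Levels needed 50 cells and ratios 100 cells in each pool; values within single clusters, and those that rest on fewer cells, are given with their number of cells. With 1 pool per genotype no test was made.

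States were gated in order on summed markers per 10000 UMIs: structural (at least 8), proliferating (8), C1q-low (under 16) split into classical (16), patrolling (16), dendritic-like (4) and other, then among C1q-high cells interferon-activated (16), Fn1-high (8), Lyve1/Folr2/Cd163 (4), Mrc1 (4), low Mrc1 with CD206- markers (4) and other. The Lyve1/Folr2/Cd163 height was set on the sum of Lyve1, Folr2, Cd163, Cd209f and Cd209g. All heights were read from the marker distributions over both pools, and 21.9% of the 3844 C1q-high cells lay within 1.5-fold of the Mrc1 height. The members, gene lists and alternatives were chosen with earlier results of these data known. All 7 members are named, with the counted genes of each pathway list past 1.5-fold (at most 3 a list by the rule; Furin, beyond that number in the latency and activation list, was named after its value was seen) and, of the 3 genes most alike each, those given in the text (the closest gene of Acvrl1 is not reported here); further pathway genes were named after their values were seen. The ratio calculation was tested on simulated data. Tools were Python 3.11.15, numpy 2.4.6, scipy 1.17.1, pandas 2.3.3, scanpy 1.11.5 (Leiden clustering without the members) and edgeR 4.0.16 in R 4.3.3 (trimmed-mean scaling only).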

Additional observations from a re-analysis of the deposited data

Results flagged for a closer look

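Between clusters, the difference of the pools ran in opposite directions for 3 genes, each with intervals that left out equality; the difference between clusters itself was not tested. Tgfbr1 had a Tgfbr2-KO over control ratio of 1.09 in cluster 0 and 0.294 in cluster 1. Tgfbr2 had 1.20 in cluster 0 and 0.857 in cluster 4, and Smad3 had 1.68 in cluster 10 and 0.567 in cluster 4.

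Cells with no usable hashtag call held signal that the comparisons do not use. The 44 blank cells that passed the filter had 321 UPM of Tgfbr2 (256 to 397) and 84.0 UPM of Smad4 (52.7 to 127), and the 95 multiplets had 83.9 UPM of Smad3 (70.4 to 99.2), each with an interval above that of the control pool. Multiplets hold cells of both pools, and their Smad3 interval includes the Tgfbr2-KO level of 75.8 UPM.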

How the results depend on the processing

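Each of the 7 genes' ratios was recomputed over all cells under 13 alternatives and in the 3 large macrophage states under 5, and with 4 alternatives for the counts of genes 162 of the 204 values lay within the interval, or for counts within 1.5 times, of the reported value. The C1q-high subset, the removal of all cells at or above the interferon height and the minimum of 5000 UMIs were chosen after seeing the data. Over all cells Tgfbr1 stayed lower in Tgfbr2-KO, with log2 ratios of -1.11 under trimmed-mean scaling, -1.12 under median-of-ratios scaling, -0.96 with each cell weighted the same, -0.91 thinned to 3000 UMIs, -0.95 without interferon-activated cells, -0.70 with states at the control pool's weights and -0.76 in C1q-high macrophages without interferon-activated and Fn1-high cells. Tgfbr2 had -0.21, -0.22, -0.06, -0.05, -0.06, 0.06 and 0.18 under the same settings in the same order, so its sign depended on the mix of states. Without any cell at or above the interferon height Tgfbr1 had -0.82, Tgfbr2 0.09 and Smad3 0.40. With states at the control pool's weights Acvrl1 had 0.03 and Smad2 0.13, and Smad3 had 0.44 in the C1q-high macrophages. By state, Tgfbr1 in Mrc1-positive macrophages turned to 0.13 when cluster 0 stood in for the gate, and had -0.68 with gate heights halved, -1.18 doubled and -0.80 thinned; the cause was not tested beyond the cluster values in the report. In low-Mrc1 macrophages Tgfbr1 had 0.03 halved, -0.30 doubled and 0.01 in cluster 10, and thinned Lyve1/Folr2/Cd163 cells had -1.13. Tgfbr2 had -0.04 in Lyve1/Folr2/Cd163 cells with heights doubled, and 0.27 and 0.07 in the clusters that stood in for Mrc1-positive and low-Mrc1 cells, where Acvrl1 had 0.19 and Smad4 0.54 (Mrc1-positive) and Smad3 0.75 (low-Mrc1). Smad3 had 0.03 thinned and Smad4 0.49 with heights halved in low-Mrc1 cells. Counted genes higher and lower by 1.5-fold numbered 2453 and 2255 with no filter, 564 and 370 at 20 UPM, and 163 and 195 under trimmed-mean scaling, against 198 and 161; at 2-fold they numbered 79 and 53. No paired analysis was possible because each genotype is 1 pool and the labels give no replicate numbers. With 1 pool per genotype no replicate could be left out.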
